A study of Mus musculus with 2 samples.

Results

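Vegfa, the VEGF receptors Flt1 and Kdr, and 5 further surface proteins of blood vessels (Eng, Plvap, Esam, Cdh5 and Robo4) were followed between Colon26 primary tumours and liver metastases. The genes were chosen by name, with earlier results of these data known, and kept where a probe had a value on both arrays. All 8 met this, of 13506 named genes in all. Colon26 is a mouse colon carcinoma line, and here its cells had been placed under the lining of the rectum of Balb/c mice, which gave primary tumours and metastases in the liver. Each of 2 two-colour arrays set 1 primary tumour, labelled with Cy5, against 1 liver metastasis, labelled with Cy3, and each pair of tissues was grown and harvested separately. The labels name no genetic change or treatment beyond the injection, and give no age, sex or time after injection. They describe the RNA as taken from the Colon26 cells of the tumours and name no sorting step.

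Values are log ratios of the 2 channels, taken as log2. The labels do not say which channel is in the numerator, so positive and negative values are given as the 2 sides of the ratio, with neither side assigned to the primary tumour or the metastasis. The dyes were placed the same way on both arrays, so a leaning of a probe towards 1 dye is part of its value on both and cannot be told apart from a difference between the tissues. In bulk RNA, a change in the number of vessel cells and a change in RNA per cell cannot be told apart either. The table holds ratios alone, so whether a marker is present at all in either tissue could not be checked. Across all genes the median was -0.02, and the SD over genes was 0.51 on array 1 and 0.55 on array 2.

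VEGF-A is secreted by many cells, and by tumour cells in particular when oxygen is low. It binds 2 receptor tyrosine kinases on endothelium: Kdr (VEGFR2), which carries most of the growth and permeability signal, and Flt1 (VEGFR1), which binds the ligand tightly, signals weakly and also exists as a secreted form that traps it. Eng, Plvap, Esam, Cdh5 and Robo4 are surface proteins by which endothelium is recognised. They serve in TGF-beta and BMP signalling (Eng), the diaphragms of fenestrae and caveolae (Plvap), cell junctions (Esam and Cdh5) and the stability of vessels (Robo4).

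Of the 8 genes, 7 were positive on both arrays and 1, Vegfa, was negative on both. Among all genes, 33.9% were positive on both arrays and 38.2% negative on both. The median of the 8 was 0.51, with 0.55 on array 1 and 0.50 on array 2. Flt1 and Robo4 passed an adjusted p of 0.05 in limma's moderated test over all genes, both on the positive side, where 2.12% of all genes did (2.90% counting both sides). On the negative side 0 of the 8 passed the adjusted threshold, against 0.777% of all genes. An unadjusted p under 0.05 on the negative side was also met by 0 of the 8. An unadjusted p under 0.05 on the positive side was met by 5 of the 8 (Flt1, Robo4, Eng, Plvap and Esam), against 15.0% of all genes. Counting both sides, as for the lists below, 27.5% of all genes had an unadjusted p under 0.05. These were 3717 genes, of which 2023 were positive and the rest negative. Only 1 probe stood for each gene, so no gene's value could be checked against a second probe, and the forms of Flt1 and Vegfa that splicing gives were not resolved.

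**Figure D1:**
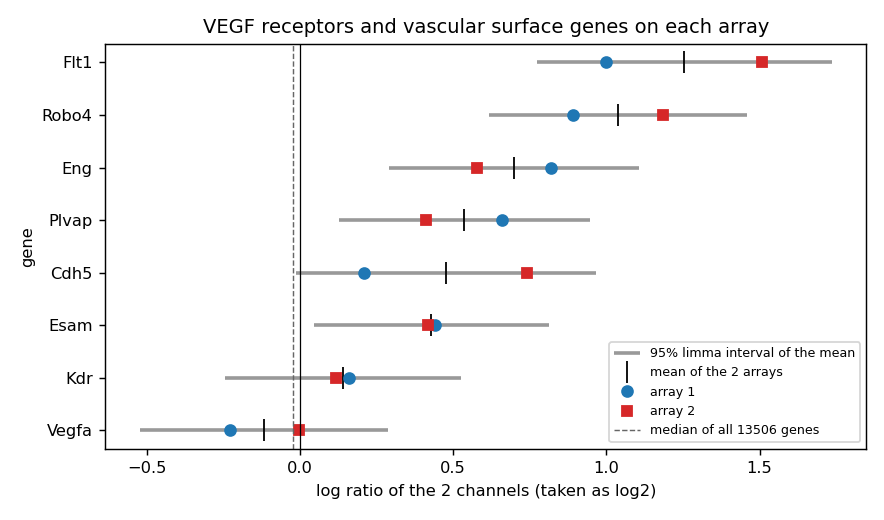
Log ratio of each of the 8 genes (horizontal axis, taken as log2) on array 1 (circles) and array 2 (squares), with the mean of both (tick), its 95% limma interval (grey bar) and the median of all genes (dashed line, -0.02). Flt1 and Robo4 lie highest, at means of 1.25 and 1.04, and Vegfa lies lowest at -0.12.

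The ligand Vegfa had -0.23 on array 1 and -0.0040 on array 2. The second value was almost at 0 and turned positive, to 0.02, when each array was centred on its median. The mean was -0.12 ± 0.16 (SD, n = 2), with a 95% limma interval from -0.52 to 0.29 (adjusted p = 0.652). On the ranking of all genes by mean, 40.5% lay below Vegfa. As deposited, Flt1 and Kdr lay above 0 and Vegfa below it on both arrays, but on array 2 the side of Vegfa depended on the centring. Flt1 lay above Vegfa by 1.23 on array 1 and by 1.51 on array 2.

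Flt1 had 1.00 on array 1 and 1.51 on array 2, the highest of the 8 genes on each. Its mean was 1.25 ± 0.36 (SD, n = 2), with a 95% limma interval from 0.77 to 1.74 (adjusted p = 0.0475). If the base of the log is 2, the tissues differed 2.39-fold, with 2.00-fold on array 1 and 2.85-fold on array 2. With a natural log the ratio would be 3.51-fold. The mean of Flt1 was higher than that of 98.2% of all genes, which placed it 237th from the top. At least 1 log2 unit on both arrays on the positive side was reached by Flt1 among the 8 and by 1.69% of all genes.

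Kdr had 0.16 on array 1 and 0.12 on array 2, so its arrays lay close together and near 0. The mean was 0.14 ± 0.03 (SD, n = 2), with a 95% limma interval from -0.25 to 0.52 (adjusted p = 0.573). The interval lies below that of Flt1, whose lower end is 0.77. Within an array, Flt1 was above Kdr by 0.84 on array 1 and by 1.39 on array 2, a mean difference of 1.12 ± 0.39 (SD, n = 2). This difference was not tested.

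Endoglin, Eng, is a co-receptor for ligands of the TGF-beta family. It had 0.82 on array 1 and 0.58 on array 2, both on the positive side. The mean was 0.70 ± 0.17 (SD, n = 2), with a 95% limma interval from 0.29 to 1.11 (adjusted p = 0.0855). Plvap, which forms the diaphragms of fenestrated vessels, had 0.66 and 0.41. Its mean of 0.54 ± 0.18 had a 95% limma interval from 0.13 to 0.95 (adjusted p = 0.123). Eng and Plvap were both higher on array 1 than on array 2, by 0.24 and 0.25, while Flt1, Robo4 and Cdh5 were higher on array 2. About equal gaps are common, since 50.5% of all genes had a wider gap between the arrays than Eng and 49.7% a wider one than Plvap.

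Cdh5, VE-cadherin, is the main adhesion molecule of endothelial junctions. It had 0.21 on array 1 and 0.74 on array 2, the widest gap of the 8 genes, and 19.3% of all genes had a wider one. The mean was 0.48 ± 0.38 (SD, n = 2) with a 95% limma interval from -0.01 to 0.96 (adjusted p = 0.189). Esam, an immunoglobulin-type adhesion molecule of tight junctions and platelets, had 0.44 and 0.42, the narrowest gap of the 8. Its mean was 0.43 ± 0.02, with a 95% limma interval from 0.04 to 0.81 (adjusted p = 0.156). The means of Plvap, Cdh5 and Esam differed by less than the half-width of any of their intervals, and their order is not resolved.

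Robo4, the Roundabout receptor of endothelium, had 0.89 on array 1 and 1.19 on array 2. Both arrays placed it second of the 8 genes, after Flt1. The mean was 1.04 ± 0.21 (SD, n = 2), with a 95% limma interval from 0.62 to 1.46 (adjusted p = 0.0492), and if the base is 2 the ratio was 2.05-fold. In the RefSeq gene order of GRCm38.p6, Robo4 and Esam are close neighbours with 2 protein-coding genes between them, Robo3 and Msantd2. Robo3, which lies beside Robo4, had 0.14 and -0.32, and so did not share the sign of Robo4 on array 2. Vsig2, which lies beside Esam, had 0.37 and 0.29 and shared its sign on both arrays. Robo4 lay above Robo3 by 1.13 ± 0.53 (SD, n = 2).

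**Figure D2:**
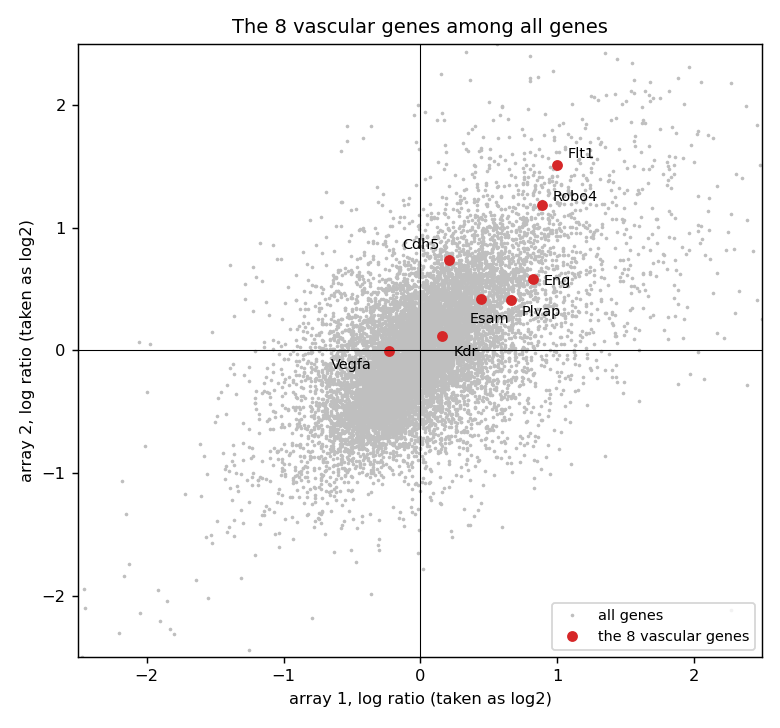
Log ratio of every gene on array 1 (horizontal axis) against array 2 (vertical axis), both taken as log2, with the 8 genes in red and 44 genes beyond 2.5 units left out of view. Flt1 and Robo4 lie in the upper right part, Vegfa and Kdr within the dense centre.

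The calls of Flt1 and Robo4 lay close to the threshold. Flt1 was called in 2 of the 10 other ways of processing in which a test was run, and Robo4 in 0 of 10. Their adjusted p in limma ran from 0.0482 to 0.486 for Flt1 and from 0.0502 to 0.472 for Robo4. Their means hardly moved, from 1.24 to 1.28 for Flt1 and from 1.03 to 1.06 for Robo4, and each was positive on each array. Only rescaling an array or rounding its values could move these means, since 1 probe stood for each gene. Kdr and Vegfa were called in 0 of the 10, as were Eng, Plvap, Esam and Cdh5.

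**Figure D3:**
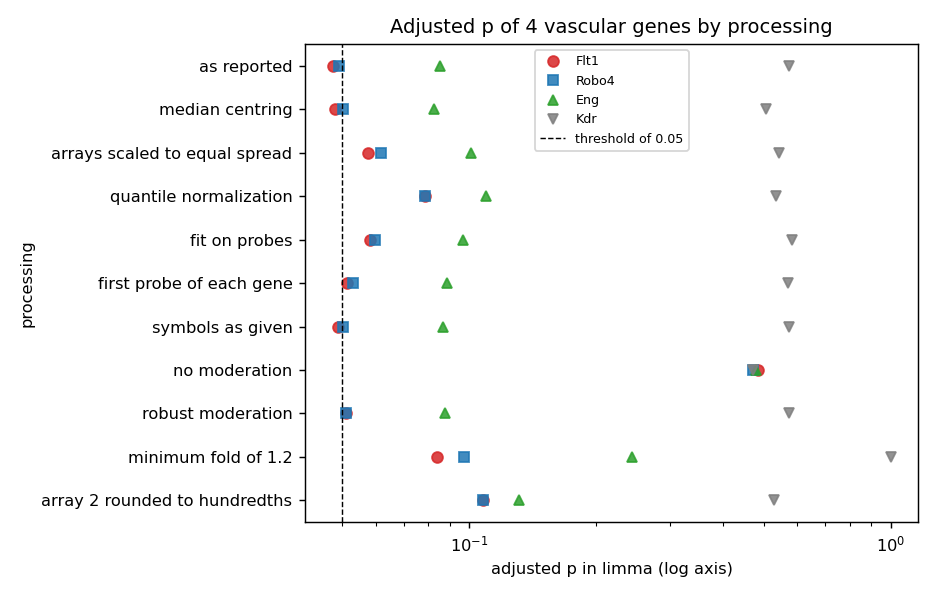
Adjusted p in limma (log axis) of Flt1, Robo4, Eng and Kdr under the reported processing and 10 others, with the threshold of 0.05 as a dashed line. Flt1 and Robo4 sit at 0.0475 and 0.0492 as reported. Of the 10 others, Flt1 stays to the left of the line in 2 and Robo4 in 0. Eng and Kdr lie to the right of the line throughout.

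Stretches directly before the annotated start were at hand for 5 of the 8 genes, from RefSeq on GRCm38.p6. They are shown for the receptor pair Flt1 and Kdr, which had unlike ratios, for Robo4, the other called gene, and for Vegfa, the ligand. Each is the 250 bases before the start, read 5′ to 3′ on the strand of the gene, and capitals mark matches on either strand to the motifs named after them. For Vegfa, which has 2 annotated starts in the table, the more upstream is shown.

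Flt1, chr5:147726012-147726261, minus strand: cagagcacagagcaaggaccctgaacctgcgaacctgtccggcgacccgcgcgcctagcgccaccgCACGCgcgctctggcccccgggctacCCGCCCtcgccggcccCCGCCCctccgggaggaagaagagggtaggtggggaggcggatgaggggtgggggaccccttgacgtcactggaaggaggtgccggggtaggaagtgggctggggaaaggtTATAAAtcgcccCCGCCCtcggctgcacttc
Kdr, chr5:75978456-75978705, minus strand: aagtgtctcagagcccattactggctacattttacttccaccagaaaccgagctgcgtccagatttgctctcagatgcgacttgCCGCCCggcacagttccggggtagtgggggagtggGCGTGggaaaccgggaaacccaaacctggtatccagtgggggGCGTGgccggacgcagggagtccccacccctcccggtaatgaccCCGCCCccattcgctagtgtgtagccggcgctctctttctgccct
Robo4, chr9:37401722-37401971, plus strand: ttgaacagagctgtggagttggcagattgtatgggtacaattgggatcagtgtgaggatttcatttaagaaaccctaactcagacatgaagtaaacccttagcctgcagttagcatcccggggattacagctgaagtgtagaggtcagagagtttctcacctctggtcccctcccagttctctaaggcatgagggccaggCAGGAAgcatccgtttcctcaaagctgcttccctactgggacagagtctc
Vegfa, chr17:46032378-46032627, minus strand: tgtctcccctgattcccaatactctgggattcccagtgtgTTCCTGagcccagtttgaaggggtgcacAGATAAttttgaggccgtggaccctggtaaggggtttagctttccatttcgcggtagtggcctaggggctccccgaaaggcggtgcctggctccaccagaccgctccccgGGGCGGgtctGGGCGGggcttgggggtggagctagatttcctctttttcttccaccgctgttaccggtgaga

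The motifs searched were the ETS core CAGGAA, bound by endothelial factors such as ERG and FLI1, which 25.7% of all 32851 such windows hold, and a second ETS core, CGGAAG, which 13.6% hold. The core of the hypoxia response element was searched as ACGTG (16.6% of windows) and as GCGTG (28.2%). The other motifs were the GC box GGGCGG (32.7%), the TATA box TATAAA (12.4%) and the GATA site AGATAA (9.99%). No matches overlapped in these stretches. The Flt1 stretch holds a TATA box that begins at position -31, where -1 is the base before the start, together with 3 GC boxes and 1 GCGTG. That of Kdr has no TATA match, 2 GC boxes and 2 matches to GCGTG. Robo4 has a single match, to CAGGAA at -50, and the lowest GC content of the 5 stretches (49.6%), whereas Flt1 has the highest (70.4%). Vegfa has CAGGAA on the opposite strand, 2 GC boxes and AGATAA, and the stretch of Eng holds 0 of the motifs. The called genes Flt1 and Robo4 share none of the searched motifs in this window. These are matches of letters, not sites at which binding was measured.

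Other ligands of the family were not on a common side. Vegfd, which acts through Flt4 and on lymphatic vessels, had 0.72 on array 1 and 0.57 on array 2, while Vegfb had -0.28 and -0.26 and Vegfc -0.32 and -0.18. Of the 4 ligands besides Vegfa, 1 was positive and 2 negative on both arrays, and 0 passed in limma (1 had an unadjusted p under 0.05). Among the receptors and co-receptors other than Flt1 and Kdr, Flt4 (VEGFR3) had 0.33 and 0.23, and Nrp2, a neuropilin that assists Flt4 and Kdr, had 1.12 and 0.62. Nrp2 lay above Flt1 on array 1 and below it on array 2, with a mean of 0.87 ± 0.35 (SD, n = 2; limma adjusted p = 0.0783). In limma 0 of these 3 passed, and 1 had an unadjusted p under 0.05.

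Genes that carry the signal inside the cell were more often negative than positive, as were all genes to a smaller degree. Of 30 measured, 7 were positive and 17 negative on both arrays, against 33.9% and 38.2% of all genes, and the median was -0.16. An unadjusted p under 0.05 in limma was met by 12, of which 4 were positive, against 27.5% of all genes. The 2 called genes were both positive, where 2.90% of all genes were called on either side. These were Pik3r1, a regulatory subunit of PI3-kinase, at 1.05 and 1.26, and Ptgs2, cyclooxygenase 2, at 1.19 and 1.02 (limma adjusted p = 0.0438 for each). Each was called in 4 of the 10 other ways of processing. Akt1 (-0.53 ± 0.10; SD, n = 2), Map2k2 (-0.61 ± 0.18) and Sphk1 (-0.73 ± 0.28) were negative on both arrays and did not pass. Most genes of this list act in nearly all cells.

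Upstream of Vegfa, genes of oxygen sensing gave 0 calls among 9 measured (1 with an unadjusted p under 0.05), with 2 above and 3 below 0 on each array and a median of -0.07. Epas1, the HIF-2alpha subunit that is abundant in endothelium, had 1.19 on array 1 and 2.81 on array 2. Both values were far above 0, but the arrays differed widely, and the mean of 2.00 ± 1.14 (SD, n = 2) did not pass (limma adjusted p = 0.0663). Arnt2, a partner of HIF subunits, had -0.42 ± 0.31, and Egln2, a prolyl hydroxylase, had 0.23 ± 0.03.

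In the pathway of Eng, the ALK1 receptor and a further co-receptor had the same sign as Eng and were called. Acvrl1, which encodes ALK1, the endothelial receptor that Eng assists, had 1.08 on array 1 and 0.92 on array 2 (limma adjusted p = 0.0475). It lay above Eng on each array, by 0.26 and 0.34. Tgfbr3, betaglycan, a relative of Eng, had 0.99 and 0.98 (limma adjusted p = 0.0475). Of the 15 measured genes besides Eng, 7 were positive and 5 negative on both arrays, the median was 0.20, and these 2 were the called ones. Tgfb1 had 0.50 ± 0.10 (SD, n = 2) and Smad9 0.57 ± 0.37. Acvrl1 and Tgfbr3 were each called in 2 of the 10 other ways of processing.

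Among the relatives and ligands of Robo4, Robo1 was close to it, with 0.90 on array 1 and 0.86 on array 2 (0.88 ± 0.03; SD, n = 2; limma adjusted p = 0.0554). Robo4 lay below Robo1 by 0.01 on array 1 and above it by 0.33 on array 2, so their order is not resolved. Slit3, a ligand of Robo receptors, had -0.41 ± 0.13 and Unc5b, a netrin receptor on which Robo4 has been described to act, had -0.69 ± 0.18. Besides Robo4, limma called 0 of the 7 measured genes, with 3 at an unadjusted p under 0.05.

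Junction genes that work with Cdh5 and Esam were mixed. Of the 7 measured besides this pair, 2 were positive on both arrays, Magi1 at 0.64 ± 0.21 (SD, n = 2) and Tjp1 (ZO-1) at 0.48 ± 0.19. The 2 negative on both were Ctnna1 at -0.31 ± 0.05 and Jup at -0.20 ± 0.02. Limma called 0 of the 7, with 2 at an unadjusted p under 0.05. Angpt2, which endothelium releases to destabilise vessels, had 0.76 on array 1 and 0.58 on array 2 and was the 1 gene of 4 measured in the angiopoietin and Tie list with a common sign (limma adjusted p = 0.0880). In limma 0 of these 4 passed, and 1 had an unadjusted p under 0.05.

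Inhibitors of vessel growth lay on both sides. Thbs2, thrombospondin 2, had 1.01 ± 0.25 (SD, n = 2), Serpinf1, the secreted factor PEDF, -0.99 ± 0.18 and Adamts1, a protease, -1.07 ± 0.48. In limma 0 of 7 passed, with 5 at an unadjusted p under 0.05 (27.5% of all genes). The adjusted p in limma of Thbs2, Serpinf1 and Adamts1 was 0.0550, 0.0514 and 0.0687. Among 9 transcription factors of endothelium, 6 lay above 0 and 2 below 0 on each array, and the median was 0.24. Limma called 1 of them, where 2.90% of all genes were called, and 2 had an unadjusted p under 0.05. Tal1, a factor of blood and endothelial cells, was called at 1.25 on array 1 and 1.57 on array 2 (limma adjusted p = 0.0365), and in 5 of the 10 other ways of processing. Gata2 had 0.28 ± 0.02, Ets2 -0.24 ± 0.01 and Klf2, which responds to blood flow, -0.52 ± 0.18.

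Further markers of endothelium were then set beside the 8 genes. Of 27 listed, 20 were measured on both arrays, and of these 9 were positive on both, 4 negative on both and 7 mixed, with a median of 0.10. Limma called 3, each positive, where 2.12% of all genes were called on that side. An unadjusted p under 0.05 was met by 9 of the 20, against 27.5% of all genes. Of these 9, 7 were positive, where 15.0% of all genes met it on that side. The called genes were Icam2 at 1.73 and 1.07, Acvrl1 at the values given above, and Sele, E-selectin, at 1.00 and 0.90. Their adjusted p in limma was 0.0475 for Icam2 and 0.0499 for Sele, and of the 10 other ways of processing Icam2 was called in 2 and Sele in 0. Selp, P-selectin, had 0.66 ± 0.08 (SD, n = 2), Esm1 0.64 ± 0.05 and Cd34 0.56 ± 0.01, none of them called. The 4 negative on both were Egfl7 (-0.49 ± 0.16), Podxl (-0.49 ± 0.16), Aplnr (-0.30 ± 0.05) and Mmrn2 (-0.08 ± 0.06), also not called. Vwf, Emcn, Cd93 and Nos3 were among the 7 mixed ones. The lowest of the 20 had -0.49 and the highest 1.40. Of the defining markers, Pecam1 and Tek had a value on neither array, and Tie1 and Cldn5 had one on array 1 alone, at 1.91 and 0.94. The part of vessel content in the values of the 8 genes was not tested.

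Both lists of specialised endothelium had lower medians than the 8 genes. Liver sinusoidal markers had a median of -0.02, like that of all genes, over the 5 measured of 12 listed. Of these, 1 was positive and 2 negative on both arrays. The median turned positive after centring, so its side is not resolved. Fcgr2b, an Fc receptor of these cells and of leukocytes, had 0.48 and 1.35, Lyve1 -0.38 and -0.07, and Bmp2 -0.37 and -1.33. Lymphatic markers had a median of -0.22 over 5 genes, Flt4 and Lyve1 with the values above and Pdpn, podoplanin, at -0.79 ± 0.16 (SD, n = 2). Limma called 0 genes of either list, with 2 sinusoidal genes and 1 lymphatic gene at an unadjusted p under 0.05.

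Pericyte and mural markers held calls on both sides. Kcnj8, a potassium channel subunit of pericytes, had 1.57 and 1.67 (limma adjusted p = 0.0282), and Cspg4 (NG2) had -1.33 and -1.15 (limma adjusted p = 0.0398). Of the 10 other ways of processing, Kcnj8 was called in 6 and Cspg4 in 4. Of the 10 measured, 2 were positive and 4 negative on both arrays, with a median of -0.13. The 2 calls stand beside 2.90% called over all genes. An unadjusted p under 0.05 in limma was met by 4 of the 10, against 27.5% of all genes. Des, desmin, had 0.89 ± 0.16 (SD, n = 2), Pdgfrb -0.45 ± 0.29 and Cox4i2 -0.48 ± 0.32.

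Some of the 8 genes are also made by blood cells, Esam by platelets, Flt1 and Eng by macrophages. Of 6 platelet genes, 1 lay above 0 and 2 below 0 on each array, with Gp5 at 0.37 ± 0.11 (SD, n = 2), Ppbp at -0.37 ± 0.16 and Gp1bb at -0.43 ± 0.07. In limma 0 passed, and 1 had an unadjusted p under 0.05. Of 6 macrophage genes, 2 were positive and 3 negative on both, with a median of -0.01 that turned positive after centring. Limma called 1 of the 6, where 2.90% of all genes were called. An unadjusted p under 0.05 was met by 3, against 27.5% of all genes. Cd14 was called at -1.43 and -0.96 (limma adjusted p = 0.0475), a call kept in 1 of the 10 other ways of processing, while Fcgr1 had 1.12 ± 0.52, Cd163 0.66 ± 0.38 and Cd68 -0.20 ± 0.01. Means of the macrophage genes ran from -1.20 to 1.12 and of the platelet genes from -0.43 to 0.37. Further genes of these lists had a value on 1 array only and entered no test. Of the macrophage list, Itgam had 2.51 on array 1 and Adgre1 1.43 on array 2. Of the platelet list, Itga2b had 2.14 and Gp1ba 0.52, both on array 2.

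Markers of hepatocytes and of colonic epithelium gave 0 calls in limma. Colon26 is itself a colon carcinoma line, so the colonic genes do not mark host tissue alone. Of 8 hepatocyte genes, 2 lay above 0 and 4 below 0 on each array, with a median of -0.09 and means from -0.95 to 0.80. Ttr had 0.80 ± 0.06 (SD, n = 2), Apoc3 -0.51 ± 0.07 and Fah -0.95 ± 0.50. Of 6 genes of colonic epithelium, 2 lay above and 4 below 0 on each array, with a median of -0.37 and means from -0.42 to 0.49. Krt20 had 0.49 ± 0.25, Vil1 -0.42 ± 0.17 and Lgals4 -0.36 ± 0.05. An unadjusted p under 0.05 was met by 4 hepatocyte and 2 colonic genes, against 27.5% of all genes. Their part in the values of the 8 genes was not tested.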

How the data were processed

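The authors deposited 1 value per probe and array, a log ratio of the 2 channels, taken here as log2 (a natural log cannot be told apart). How they corrected the background, filtered spots and normalized is not stated in any label or header used. Both arrays gave a value for 18837 of 23473 probes. Platform symbols were updated through the RefSeq gene table (Esam is listed there as Esam1), and probes of a gene were averaged, which gave 13506 genes. The R package limma 3.58.1 (R 4.3.3) compared each gene's mean ratio with 0 (an intercept fit moderated by eBayes, with 1 residual and 4.06 prior degrees of freedom), with Benjamini-Hochberg adjustment over all genes and a threshold of 0.05. Errors are the SD of 2 arrays, whose number limits the precision. The script was tested on simulated data.

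The 8 genes and 18 lists were chosen with earlier results of these data known. From each list, the called genes and up to 3 more were named, those of common sign that were farthest from 0 on the array nearer to 0. Other named genes were chosen after their values were seen. Motifs were searched in 250 bases before RefSeq starts. In all, 10 alternatives were fitted, and each array was left out in turn. Figures were drawn with matplotlib 3.10.9.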

Additional observations from a re-analysis of the deposited data

How the results depend on the processing

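The sign of the mean of each of the 8 genes was the same under the 10 alternatives and on each array alone. Part of this was fixed in advance. With 1 probe per gene, only median centring, scaling, quantile normalization and rounding could change a gene's values. A gene of 1 sign on both arrays also keeps the sign of its mean on each array alone. Under each alternative 7 genes were positive on both arrays, but the calls did not hold. As reported, 2 of the 8 genes were called. The number was 1 after median centring (Robo4 at 1.06, limma adjusted p = 0.0502) and 1 with symbols as given (Robo4 at 1.04, 0.0503), and Flt1 was the gene called in both. It was 0 after scaling to equal spread (Flt1 1.24, adjusted p = 0.0575; Robo4 1.03, 0.0618) and after quantile normalization (Flt1 1.26 and Robo4 1.04, both 0.0786). It was also 0 in the fit on probes (Flt1 0.0582, Robo4 0.0599), with the first probe of each gene (0.0513 and 0.0531) and with robust moderation (0.0510 for both). The same held with a 1.2-fold minimum (0.0840 and 0.0974), with no moderation (0.486 and 0.472) and with array 2 rounded to hundredths (0.108 for both). In these 5 settings without rescaling, and in the rounded one, the values of Flt1 and Robo4 were 1.25 and 1.04. Rounding made the arrays equal for 145 genes, against 0 as deposited, which enters the moderation. Over all genes 391 were called as reported, 358 after median centring and 366 with symbols as given. With the first probe of each gene 265 were called, and with robust moderation 267. Counts were lower after scaling (51), after quantile normalization (4), on probes (238) and when a 1.2-fold minimum was set (108). With rounding or with no moderation 0 were called (3449 and 1450 had an unadjusted p under 0.05 there). The median of the 8 genes was 0.50 without array 1 and 0.55 without array 2, and 1 array alone allows no test. Taking the log as natural gives 3.51-fold for Flt1 and 2.82-fold for Robo4. Both tissues of a pair share an array, so each ratio is already a comparison within a pair, and the test against 0 is the paired one. The deposited ratios hold no signal over background, so dim probes could not be set apart.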

Other observations

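Several vascular genes on the lists had a value on 1 array only and entered no test. On array 2 alone, Robo2, a relative of Robo4, had 1.89, Tgfbr1, a receptor that Eng also binds, had 2.16, and F11r, a junction protein of the same family as Esam, had 2.32. Egln3, a prolyl hydroxylase that low oxygen induces along with Vegfa, had -1.996 on array 2 alone. On array 1 alone, Lmo2, a partner of Tal1, had 1.04 and Hey2, a Notch target of arterial endothelium, had 0.40. Others lay closer to 0 on array 2 alone: Lyl1 at 0.64, Adgrl4 at 0.55, Dnase1l3 at 0.22, Ehd3 at -0.21 and Mrc1 at -0.27. Large single values were not limited to vascular genes. Slc26a3, a colonic marker, had 2.41 on array 1 alone. Of the hepatocyte list, Apoa1 had 0.75 on array 1 alone and Hnf4a -0.65 on array 2 alone. All of these genes were chosen after their values were seen, and single values carry no error.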
